A study of Homo sapiens with 49 samples.

Results

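The comparison was the step from 10 to 100 pM ethinyl estradiol (EE), a synthetic estrogen, in Ishikawa cells, a line established from a human uterine epithelial adenocarcinoma. Its members were chosen by the arrays' titles: 6 arrays at 10 pM and 6 at 100 pM, replicates 1 to 6 of each, which made 12 of the 49 arrays of the series. The 37 others were vehicle arrays or arrays at 0.1, 0.3, 1, 3 and 1000 pM, 6 in each group and 7 at 0.3 pM, and all 8 groups were 1 cell line in medium with 5% CSS and 0.1% (v/v) ethanol, with part of the medium renewed daily. Cells were harvested after 72 h. No genotype or other agent separated the groups, so that the dose of EE was the labelled difference. Nothing in the labels says whether each replicate was its own culture, and the p-values therefore measure only how far these samples vary, a spread that may be technical.

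Estrogens enter the cell and bind estrogen receptor alpha, a transcription factor encoded by ESR1, which then acts at estrogen response elements in DNA or through other bound factors and coregulators. In endometrial epithelium, estrogen is best known for inducing the progesterone receptor, which prepares the tissue for the secretory phase, and for driving growth. A graded series of doses shows which of these genes have already responded at a low dose and which still move when the dose rises.

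Levels are log2 values of 1 probe set for each gene as deposited, and a log2 difference of 1 is a change by a factor of 2. Values at or under 4 were treated as the floor of the measurement, where levels have no reliable order. Of 11075 genes tested, the step raised 123 (1.11%) and lowered 71 (0.641%) at an adjusted p under 0.05 (limma without a block). The replicate numbers paired these arrays: 12 of 12 arrays deviated most like the array of the same number in the other group. With that number as a block limma called 454 genes higher (4.1%) and 460 lower (4.15%), including all 194 called without it. Rises were larger than falls, as 41 rises and 4 falls reached 1.5-fold, and 17 rises and 0 falls reached 2-fold. The 720 genes called only with the block had small changes, with a median size of 0.187 (log2) against 0.388 in the 194, and 2 of them reached 1.5-fold.

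**Figure D1:**
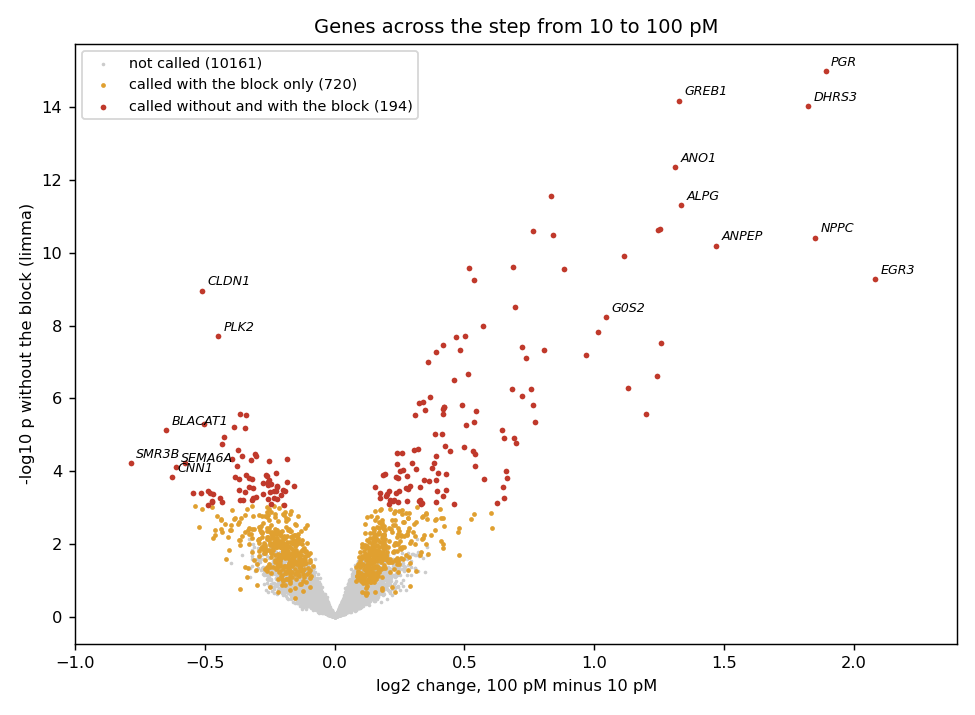
Log2 change from 10 to 100 pM (x axis) against −log10 of the unadjusted limma p without the block (y axis) for 11075 genes. The 194 genes called without the block (red) reach farther to the right, up to EGR3 at a fitted 2.08, than to the left, down to SMR3B at −0.79, and the 720 called with the block only (orange) lie near 0.

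The progesterone receptor gene PGR had the smallest p of all genes tested. Its log2 level had a lowest value of 6.54, a median of 7.02 and a highest of 7.20 at 10 pM, and 8.73, 8.85 and 8.89 at 100 pM. The groups did not overlap, and the 6 arrays at 100 pM were closely bunched. The fold was 3.71 (log2 change 1.89 ± 0.08 SE, n = 6 each, limma adjusted p = 1.13e-11), and the pair of arrays with the smallest difference still differed by 1.67. A further PGR probe set changed by 1.85. Since these are bulk samples, a change in how many cells express a gene and a change in RNA per cell cannot be told apart.

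GREB1, a growth regulator first known from estrogen-treated breast cancer cells, ran from 6.11 through a median of 6.32 to 6.45 at 10 pM, and from 7.48 through 7.64 to 7.73 at 100 pM. Again no array of the higher dose came down to the lower group, and the fold was 2.51 (1.33 ± 0.07 SE, limma adjusted p = 3.41e-11). OLFM1, a secreted olfactomedin-domain glycoprotein, had a lowest, median and highest level of 7.27, 7.71 and 8.05 at 10 pM and of 8.71, 8.92 and 9.08 at 100 pM. Its groups were also apart, with a 2.37-fold rise (1.25 ± 0.09 SE, limma adjusted p = 3.01e-08).

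EGR3, an immediate early zinc-finger transcription factor, showed the largest difference in log2 level. At 10 pM it lay between 2.69 and 4.08 (median 3.20), so 5 of 6 arrays were under the floor, and at 100 pM between 4.92 and 5.65 (median 5.45). All 100 pM arrays thus stood above the 10 pM arrays, but the fitted change of 2.08 ± 0.19 SE (limma adjusted p = 3.43e-07) is uncertain in size. NPPC, the C-type natriuretic peptide, was under the floor on every 10 pM array (highest 3.87) and above it on every 100 pM array (lowest 5.06, median 5.29, highest 5.51). Against the floor it was at least 2.44-fold higher (limma adjusted p = 3.85e-08). MSMB, a secreted microseminoprotein, was called too (limma adjusted p = 1.21e-05), but its 100 pM median of 3.80 was still under the floor and no fold is given.

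DHRS3, which reduces retinaldehyde to retinol, went from a lowest level of 4.67 and a highest of 5.20 at 10 pM to 6.60 and 6.89 at 100 pM, with no overlap. The rise was 3.55-fold (1.83 ± 0.09 SE, limma adjusted p = 3.41e-11). ANPEP, the membrane aminopeptidase N, rose 2.77-fold, from a median of 5.29 (4.76 to 5.63) to 6.79 (6.52 to 6.89). The germ cell alkaline phosphatase ALPG rose 2.52-fold, from 5.42 (5.20 to 5.68) to 6.74 (6.53 to 7.08). Neither gene had overlapping groups. The near-identical placental gene ALPP, known as an estrogen-induced marker of these cells, stayed under the floor (medians of 2.43 and 3.02), and since the genes share sequence the ALPG probe set may also read ALPP.

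Promoter sequences of these genes were searched for letters of the estrogen response element. The windows came from RefSeq (GRCh38.p14) and ran from 250 bases before to 50 bases after a start site. The half-site AGGTCA was searched on both strands, where it reads TGACCT on the other. It stood in 13.8% of all 35116 windows, and in 5 of the 28 windows of the 24 genes with the largest rises and falls. Of those 24 genes 16 had a window. The full palindrome GGTCANNNTGACC holds the half-site, on either strand, only if an A precedes it or a T follows it. It was in 0.057% of all windows and in none of the 28. Its form without the last base, GGTCANNNTGAC or GTCANNNTGACC, was in 0.219%, and in the window of SMR3B alone among the 28. Below are the 250 bases before the start site of 2 genes that rose and of SMR3B, which had the largest fall, each 5′ to 3′ along the gene, with the half-site in capitals.
ALPG, chr2:232406594-232406843, plus strand: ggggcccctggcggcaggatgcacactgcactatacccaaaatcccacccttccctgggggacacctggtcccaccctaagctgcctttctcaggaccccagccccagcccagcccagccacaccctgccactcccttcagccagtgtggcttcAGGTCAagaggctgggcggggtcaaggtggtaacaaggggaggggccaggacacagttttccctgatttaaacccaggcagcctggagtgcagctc
ANPEP, chr15:89806629-89806878, minus strand: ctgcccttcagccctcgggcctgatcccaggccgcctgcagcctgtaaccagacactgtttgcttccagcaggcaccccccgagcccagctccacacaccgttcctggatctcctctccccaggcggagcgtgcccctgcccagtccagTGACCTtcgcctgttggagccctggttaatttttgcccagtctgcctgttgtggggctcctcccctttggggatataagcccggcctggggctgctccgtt
SMR3B, chr4:70382881-70383130, plus strand: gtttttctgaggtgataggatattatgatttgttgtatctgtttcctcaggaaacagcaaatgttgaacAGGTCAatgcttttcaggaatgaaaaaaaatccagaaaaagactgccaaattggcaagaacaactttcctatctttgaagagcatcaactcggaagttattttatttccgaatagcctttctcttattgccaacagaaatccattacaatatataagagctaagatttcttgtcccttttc
Counted from the start site, the half-site begins at base −96 in ALPG, at −101 in ANPEP (in 1 of its 2 windows) and at −181 in SMR3B. In SMR3B the shortened palindrome GTCATTTTGACC begins at base 32 after the start. DHRS3 carries a half-site too, in 1 of its 3 windows, and TNFAIP2 at base 29 after the start. Such a match is a description of letters and shows no binding.

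The largest rises also held a channel, a phosphodiesterase and a secretoglobin. ANO1, a chloride channel opened by calcium, rose 2.48-fold, from a median of 6.26 (5.87 to 6.38) to 7.53 (7.39 to 7.62), and the glycerophosphodiesterase GDPD5 rose 2.38-fold, from 5.99 (5.82 to 6.14) to 7.19 (6.92 to 7.56). The other GDPD5 probe set changed by only 0.74. SCGB2A1, a secretoglobin of glandular epithelium, lay at 5.85 to 6.94 with a median of 5.97 at 10 pM and at 7.19 to 8.02 with a median of 7.23 at 100 pM. In each of the 6 pairs it was higher at 100 pM, by 1.08 to 1.37, although the arrays of either dose spread over about as much (limma adjusted p = 7.17e-05 without the block and 9.28e-17 with it).

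**Figure D2:**
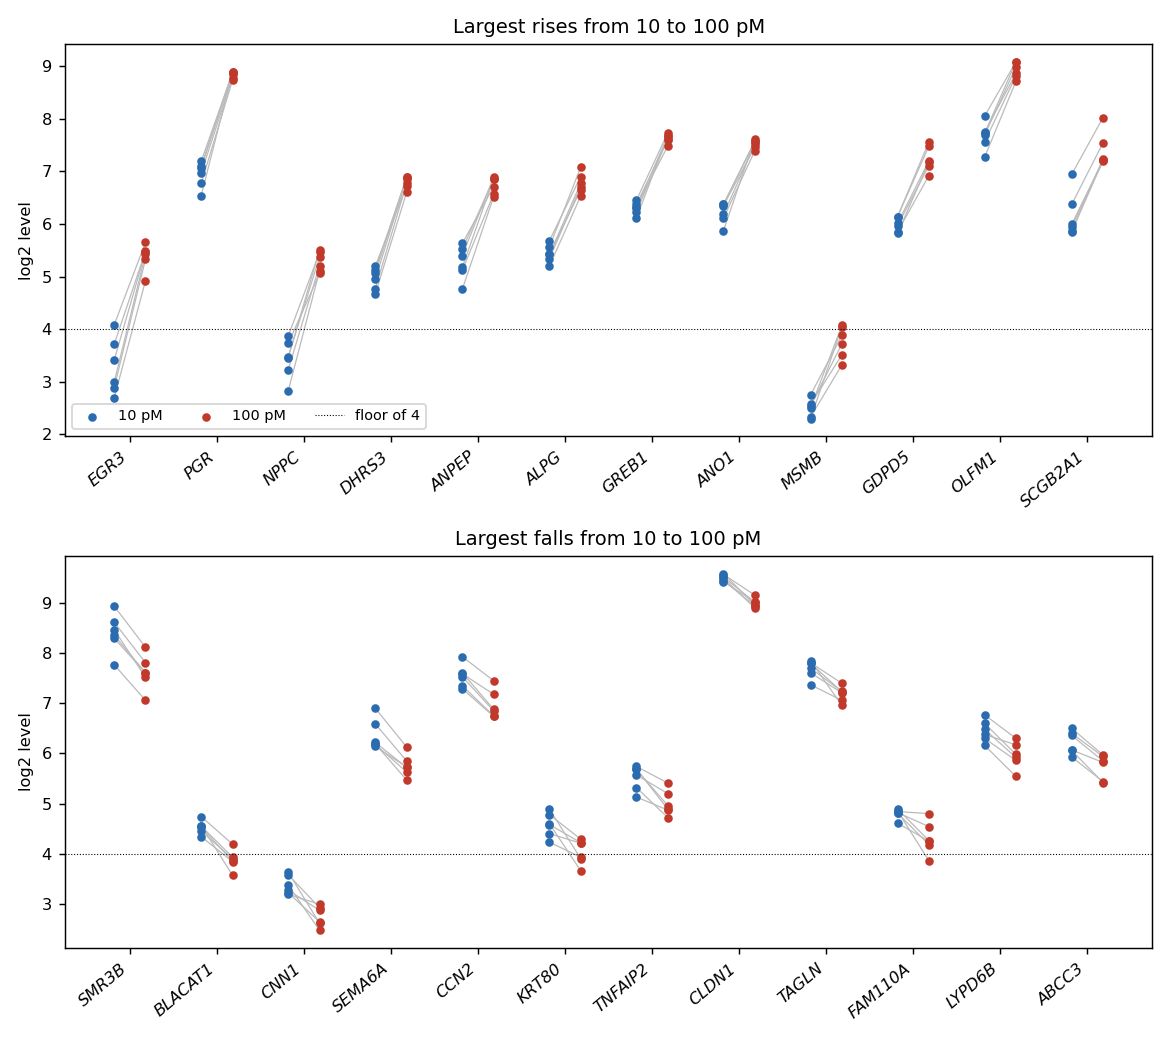
Log2 level (y axis) on each of the 6 arrays at 10 pM (blue) and 6 at 100 pM (red) for the 12 largest rises and 12 largest falls, with lines joining arrays of the same number and a dotted line at the floor of 4. For PGR all 100 pM arrays lie at 8.73 or above and all 10 pM arrays at 7.20 or below, while for SMR3B the groups overlap but all 6 lines go down.

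Another tier of rises had smaller steps at levels well above or near the floor. G0S2, an inhibitor of the main triglyceride lipase, rose 2.06-fold, from a median of 8.22 to 9.22 (1.05 ± 0.11 SE). MLPH, which encodes melanophilin, a linker of vesicles to myosin, rose 2.17-fold, the kinase PIM1 2.02-fold and the secreted protein OLFML3 2.19-fold, although 1 of the 10 pM arrays of OLFML3 was under the floor at 3.97. The brain-type creatine kinase CKB, long known as an estrogen-induced protein of the uterus, rose 1.79-fold, from 8.11 (7.90 to 8.31) to 8.94 (8.82 to 9.09), and carbonic anhydrase CA2 rose 1.85-fold, from 5.84 (5.61 to 6.00) to 6.70 (6.53 to 6.83). None of these 6 genes had overlapping groups, and the highest limma adjusted p was 0.000149, for OLFML3. ATXN7L1 (0.97 ± 0.12 SE) and the RNA-binding protein gene RBM24 also rose, but the 10 pM median of ATXN7L1 was 3.96 and every 10 pM array of RBM24 was under the floor, so their sizes are uncertain.

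The falls were shallower, and without the block fewer. SMR3B, a gene for a proline-rich secreted peptide of salivary glands, fell 1.72-fold (log2 change −0.79 ± 0.16 SE, limma adjusted p = 0.00718). Its level ran from 7.77 through a median of 8.42 to 8.94 at 10 pM, and from 7.07 through 7.61 to 8.12 at 100 pM. The groups overlapped, yet the difference in each of the 6 pairs lay between −0.95 and −0.69, and the adjusted p with the block was 1.19e-14 (limma). CCN2, the connective tissue growth factor, overlapped likewise, with 7.29, 7.56 and 7.93 at 10 pM and 6.74, 6.86 and 7.45 at 100 pM. It fell 1.49-fold (−0.58 ± 0.11 SE, limma adjusted p = 0.00728), in 6 of 6 pairs.

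Claudin 1, a tight junction protein encoded by CLDN1, fell by a similar amount on all pairs. Its 10 pM arrays lay between 9.43 and 9.59 and its 100 pM arrays between 8.90 and 9.16, so the groups were apart, with pair differences of −0.63 to −0.41 and a 1.42-fold fall (−0.51 ± 0.05 SE, limma adjusted p = 6.45e-07). PLK2, a polo-like kinase induced by p53, fell 1.37-fold, from a median of 9.94 (9.86 to 10.10) to 9.51 (9.39 to 9.63). The actin-binding protein TAGLN fell 1.42-fold, with medians of 7.75 and 7.22, and the transmembrane semaphorin SEMA6A fell 1.53-fold, with medians of 6.21 and 5.73. The other 2 SEMA6A probe sets changed by −0.46 and −0.18, and with the mean of the probe sets it was not called (limma adjusted p = 0.272). TAGLN groups overlapped and those of SEMA6A did not. The long noncoding RNA BLACAT1 fell from 4.54 to 3.87, and the calponin gene CNN1 was called while under the floor at both doses, so no fold is given for either.

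A further 6 falls carried larger p-values. The efflux transporter ABCC3 fell by 0.48, the keratin KRT80 by 0.55, TNFAIP2 by 0.51, LYPD6B by 0.49, FAM110A by 0.49 and the peroxidase PXDN by 0.47, and the groups of all 6 overlapped. Leaving out single arrays ended the call of FAM110A in 9 of 12 fits (highest limma adjusted p = 0.117), of TNFAIP2 and PXDN in 8 each (0.0863 and 0.119), of KRT80 in 7 (0.0812), of LYPD6B in 6 (0.0723) and of ABCC3 in 5 (0.0853). With the block, SIGLEC15, a sialic acid-binding lectin, fell by 0.54 (limma adjusted p = 5.42e-06, against 0.0527 without it) and CGNL1, a junction protein related to cingulin, by 0.52 (0.00138, against 0.129). RPP25, a subunit of ribonuclease P, was lower by 0.51 in 5 of 6 pairs (limma adjusted p = 0.0054 with the block, 0.0591 without). Its other probe set changed by −0.10. From vehicle to 1000 pM RPP25 changed by −0.14 and was not called (limma adjusted p = 0.873). SIGLEC15 (−0.94, limma adjusted p = 4.78e-05) and CGNL1 (−1.21, 0.000282) were called lower there.

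Across the 123 genes called higher, the arrays of the 2 doses did not overlap in 93, and among the 71 called lower in 40, against 175 (1.58%) of all genes tested. All 6 pairs went the called way in 121 of the 123 and in 70 of the 71. Leaving out each of the 12 arrays in turn gave 95 to 123 rises and 44 to 73 falls, and 90 rises and 32 falls were called in all 12 fits. The falls were 44 without 10 pM replicate 1, 44 without 10 pM replicate 4 and 45 without 100 pM replicate 3. With all 49 arrays in 1 fit 83 rises and 26 falls were called, and among the calls described here CCN2 (limma adjusted p = 0.133), SEMA6A (0.0513), KRT80 (0.108), TNFAIP2 (0.71), FAM110A (0.364), PXDN (0.0803), IER2 (0.0815), JUP (0.394), MYL9 (1), IGFBP5 (0.108), NRARP (0.479), FZD2 (0.832), FGF18 (0.127), SPRY1 (0.0815) and IGFBP3 (0.0674) were then not called lower. Of the rises LFNG (limma adjusted p = 0.355), RFC3 (1) and BNIP3 (0.197) were not called in that fit.

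How much of the response was already in place at 10 pM differed between genes. For each called gene whose vehicle and 1000 pM medians differed by at least 0.5 (log2), the distance from vehicle was expressed as a percentage of that difference. In the 88 such genes called higher, the median was 36.5% at 10 pM (quartiles 20.5% and 46.2%) and 86.2% at 100 pM. In the 46 called lower it was 41.8% (quartiles 32.1% and 48.0%) and 90.4%. These percentages describe genes chosen for a change between the 2 doses, so no test is attached. In 18 of the 88 and 3 of the 46 at least 1 of the vehicle, 10, 100 or 1000 pM medians was at or under the floor. The other 70 and 43, a choice made after the values were seen, had medians of 37.9% and 41.5% at 10 pM.

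OLFM1 and PGR were well along at 10 pM, at 69.4% and 57.7%, and stood at 95.9% and 93.9% at 100 pM. ANO1 stood at 48.6%, MLPH at 45.8% and GREB1 at 45.5%. SCGB2A1 (24.7%) and CA2 (18.0%) still had most of their range ahead at 10 pM. No percentage is given for ALPG, DHRS3, EGR3 and NPPC, whose vehicle medians were under the floor, at 3.59 in ALPG and lower in the other genes. Of the falls, CCN2 stood at 36.3%, CLDN1 at 31.9% and PLK2 at 33.0%.

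Some genes had hardly left the vehicle level at 10 pM and moved in the step. With a limit of 20%, chosen after the values were seen, there were 21 such genes among the 88 and 6 among the 46, or 17 and 5 among those above the floor throughout. SMR3B had a median of 8.42 in vehicle and 8.42 at 10 pM, 0.8% of its range, and 73.2% at 100 pM. ETV5, an ETS transcription factor (−4.4%, from 7.80 at 10 pM to 7.40 at 100 pM), and SHISA3 (−0.3%) also fell from near the vehicle level. BLACAT1 had a median of 4.59 in vehicle and 4.54 at 10 pM, and was under the floor at 1000 pM (3.65). Rising genes of this kind included the cytokine receptor IL17RB (2.5% at 10 pM and 94.4% at 100 pM), the epithelial ETS factor EHF (9.6% and 82.5%) and the zinc exporter SLC30A1 (16.0% and 82.1%). CLIC3, a chloride intracellular channel protein, was lower at 10 pM (median 4.62) than in vehicle (5.04) and rose in the step to 5.31. These late genes outside the largest changes were singled out after their values were seen. The same 10 pM arrays enter both the percentage and the call, so lateness was not tested by it. In the contrast with the step from 1 to 10 pM, none of the genes named here was called without the block. With the block SMR3B alone of them was called (limma adjusted p = 0.000144).

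**Figure D3:**
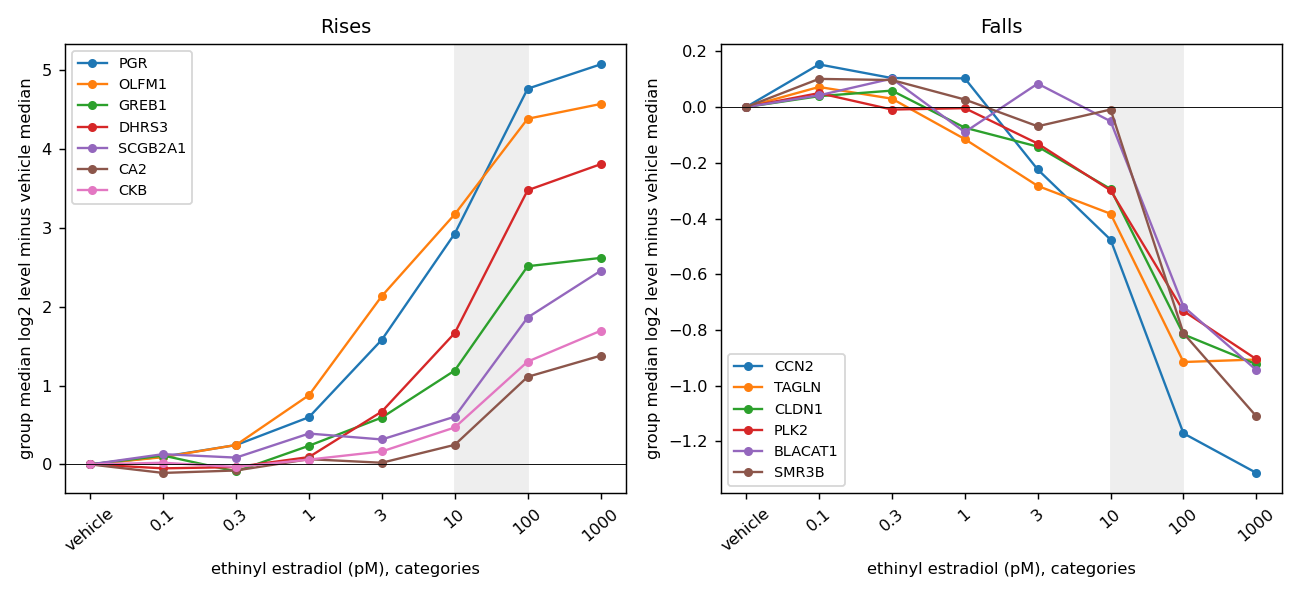
Group median log2 level minus the vehicle median (y axis) across the 8 groups (x axis, evenly spaced categories), with the step shaded. OLFM1 and PGR have passed the middle of their range at 10 pM (69.4% and 57.7%), whereas SMR3B still lies at the vehicle level at 10 pM (0.8%) and is lower at 100 pM.

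The receptor itself did not pass the test. ESR1 had a lowest, median and highest level of 8.09, 8.26 and 8.33 at 10 pM and of 8.10, 8.23 and 8.31 at 100 pM, ranges that nearly coincide (−0.01 ± 0.05 SE, limma adjusted p = 0.982). The 6 probe sets of ESR2, the beta receptor, were under the floor, with no array above 2.71. Of the 10 measured receptors and coregulators 1 rose (against 1.11% of all genes), the corepressor NRIP1. It went from 8.23 (8.03 to 8.35) to 8.95 (8.90 to 9.11), a 1.70-fold rise (limma adjusted p = 3.01e-08) with no overlap. The coactivators NCOA1 (−0.07 ± 0.06 SE) and NCOA2 (0.04 ± 0.05) and the pioneer factor FOXA1 (0.01 ± 0.11) did not pass.

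Of 29 measured genes known to be induced by estrogen in other cells or in this line, 11 rose (37.9%, against 1.11% of all genes), and 18 did not pass, with a list median of 0.127 against −0.005 over all genes. This list, like the other gene lists here, was drawn up with earlier results of these arrays known, so the counts in each are a description. The 11 were EGR3, PGR, ANPEP, GREB1, ANO1, OLFM1, MLPH, the calcium-binding protein CAPS (0.70 ± 0.07 SE), the carbonic anhydrase CA12 (0.43 ± 0.09), the EGF receptor ligand TGFA (0.31 ± 0.05) and the mTOR inhibitor DEPTOR (0.31 ± 0.06). With the block the amino acid transporter SLC7A5 rose (0.13, limma adjusted p = 0.0125), and AGR2, a disulfide isomerase, and cyclin D1, encoded by CCND1, fell (−0.18 and −0.12, adjusted p = 0.0131 and 0.0142). MYC (−0.08 ± 0.06), XBP1 (0.04 ± 0.05) and the proto-oncogene MYB (0.19 ± 0.11) did not pass.

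CAPS is also a marker of ciliated epithelium, so the other markers of that cell type were read beside it. Of 8 such markers CAPS was the 1 above the floor on all 12 arrays, and 5 were under it on every array. The master factor FOXJ1 exceeded the floor on 1 array (highest 4.21) and changed by 0.06 (limma adjusted p = 0.942). The summed level of the 8 markers, on the log2 scale, was 9.12 to 9.48 at 10 pM and 9.75 to 10.09 at 100 pM, with CAPS itself part of the sum, and the part of ciliated cells in the rise of CAPS was not tested. All 11 markers of endometrial epithelium were above the floor on all 12 arrays (summed level 13.38 to 13.52 and 13.39 to 13.48), among them EPCAM, KRT8 and PAX8.

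Secretory and retinoid genes moved through single members. Of 10 measured genes of secretory and receptive endometrium 3 rose (against 1.11% of all genes). They were SCGB2A1, a further secretoglobin, SCGB1D2 (0.65 ± 0.16 SE), and SOX17, a transcription factor of glandular epithelium. SOX17 went from a median of 7.80 (7.65 to 7.83) to 8.29 (8.08 to 8.36). The call of SCGB1D2, whose 10 pM median was 3.996, was lost in 9 of 12 leave-one-out fits (highest limma adjusted p = 0.103). With the block, against 4.1% of all genes higher and 4.15% lower, osteopontin, encoded by SPP1, also rose (0.18, limma adjusted p = 0.0262) and GPX3 and the integrin ITGB3 fell (0.0376 and 0.0409), while MUC1 (−0.03 ± 0.10) did not pass. Of 10 measured retinoid genes DHRS3 rose and the other 9 did not pass, among them the retinol dehydrogenase RDH10 (0.02 ± 0.08) and the retinoic acid hydroxylase CYP26B1 (−0.22 ± 0.11). Among 9 measured lipid droplet genes G0S2 rose, with its target lipase PNPLA2 at −0.08 ± 0.10. Among 8 channels and carbonic anhydrases CA2 and CLIC3 rose. The share of all genes called higher without the block, 1.11%, stands beside the counts of these 3 lists too.

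YAP and SRF link the actin cytoskeleton to transcription. Of 17 measured targets 4 fell (23.5%, against 0.641% of all genes) and 13 did not pass. The list median was −0.16, against −0.005 over all genes, and 15 of the 17 lay below 0. The list was chosen with earlier results of these data known, so its counts are a description. The 4 were CCN2, TAGLN, the myosin light chain MYL9 (−0.32 ± 0.08 SE) and CNN1, which was under the floor on every array of both doses. The call of MYL9 was lost in 8 of 12 leave-one-out fits (highest limma adjusted p = 0.116). With the block 10 fell (4.15% of all genes), the further 6 being the matricellular protein CCN1 (−0.26), the smooth muscle actin ACTA2 (−0.25), CNN2 (−0.22), the LIM protein AJUBA (−0.16), the tropomyosin TPM1 (−0.13) and vinculin, encoded by VCL (−0.12), with a highest limma adjusted p of 0.0188. The 4 other probe sets of TPM1 changed by −0.22 to 0.11, and the 2 others of AJUBA by −0.28 to −0.06. ANKRD1 (−0.26 ± 0.19) and SRF itself (−0.09 ± 0.08) did not pass. The reference gene ACTB, itself an actin, lay at −0.11 (limma adjusted p = 0.12 without the block and 0.00177 with it).

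Contractile genes are also expressed by stromal cells, whose markers were therefore read beside them. Of 9 stromal markers COL1A1, COL1A2, COL3A1 and FBN1 were above the floor on all 12 arrays, and the defining markers DCN, LUM, PDGFRA, PDGFRB and THY1 were under it on every array. The summed level was 9.30 to 9.64 at 10 pM and 9.49 to 9.79 at 100 pM. The part of stromal cells in the falls was not tested. Endothelial (7 of 7) and immune markers (7 of 7 with a probe set) were under the floor on all 12 arrays.

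Notch genes included both directions. Of 8 measured members 3 fell (against 0.641% of all genes) and 1 rose (against 1.11%). Those that fell were the ligand JAG1 (−0.26 ± 0.06 SE), the target repressor HES1 (−0.34 ± 0.05) and the target NRARP (−0.25 ± 0.06), and the rise was in LFNG, a glycosyltransferase that modifies Notch (0.46 ± 0.12). HES1 went from a median of 9.06 (8.86 to 9.16) to 8.69 (8.61 to 8.78), with no overlap (limma adjusted p = 0.00057). The receptors NOTCH1 (−0.07 ± 0.07) and NOTCH2 (−0.04 ± 0.05) did not pass. The calls of LFNG and NRARP were lost in 9 and 7 of 12 leave-one-out fits (highest limma adjusted p = 0.121 and 0.0845).

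Growth factor lists held a few calls each. Without the block limma called 12.5% of TGF-beta, 20.0% of IGF, 14.3% of EGF family and 14.3% of FGF genes. It called 11.1% of ERK feedback and 13.3% of Wnt genes, against 1.11% of all genes higher and 0.641% lower. The lists were chosen with earlier results of these data known, so these shares are a description. With the block 4.1% of all genes were called higher and 4.15% lower. In the TGF-beta axis 2 of 16 measured members rose (against 1.11% of all genes), the matrix protein THBS1, which can activate latent TGF-beta, and LTBP1, which anchors it (0.33 ± 0.08 SE). THBS1 went from a median of 10.18 (9.85 to 10.24) to 10.66 (10.34 to 10.81), a 1.42-fold rise with no overlap (limma adjusted p = 0.000976). With the block 4 fell (against 4.15%), TGFB2, LTBP2, LTBP3 and the target ID3, by 0.17 to 0.34 (highest limma adjusted p = 0.0409). The 2 other LTBP3 probe sets changed by −0.10 and 0.02. From vehicle to 1000 pM TGFB2 was called lower (limma adjusted p = 0.00461). LTBP2 (0.745), LTBP3 (0.7) and ID3 (0.834) were not called there. Of 10 measured genes of the IGF axis the binding proteins IGFBP5 (−0.34 ± 0.07) and IGFBP3 (−0.16 ± 0.04) fell, and IGF1R (0.16 ± 0.10) did not pass. The ERBB ligand NRG1 (−0.32 ± 0.06) fell among 7 EGF family genes, FGF18 (−0.25 ± 0.06) among 7 FGF genes and the feedback inhibitor SPRY1 (−0.26 ± 0.06) among 9 genes of ERK feedback. The Wnt effector LEF1 rose (0.42 ± 0.10) and the receptor FZD2 fell (−0.26 ± 0.06) among 15 Wnt genes. With the block falls were also called in the receptors FGFR2 (−0.32) and ERBB2 (−0.20), the FGF carrier FGFBP1 (−0.30), the insulin receptor substrate IRS2 (−0.23), IGFBP2 (−0.16) and the ERK inhibitors SPRY2 (−0.25) and DUSP6 (−0.11), and a rise in the Wnt coreceptor LGR4 (0.15), with a highest limma adjusted p of 0.0454. With the mean of a gene's probe sets NRG1 (limma adjusted p = 0.0858) and FZD2 (0.348) were not called. Leaving out single arrays ended the calls of FZD2 in 10 of 12 fits (highest limma adjusted p = 0.11), FGF18 and LEF1 in 8 each (0.139 and 0.0899), LTBP1 and IGFBP3 in 5 each (0.0685 and 0.0706) and SPRY1 in 3 (0.0584).

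Among immediate early genes other than EGR3, limma without the block called 2 lower and 0 higher, against 0.641% and 1.11% of all genes. Of 12 measured, IER2 fell from 8.23 (8.18 to 8.55) to 7.82 (7.68 to 8.07) without overlap (limma adjusted p = 0.00186), and the AP-1 subunit JUN fell by 0.36, a call lost in 9 of 12 leave-one-out fits (highest limma adjusted p = 0.11) and with the mean of its probe sets (0.185). FOSL2 rose with the block (0.60, limma adjusted p = 0.000139, against 0.0722 without it), which called 4.1% of all genes higher. On the mean of its probe sets FOSL2 was called without the block too (limma adjusted p = 0.0394). JUNB (−0.12 ± 0.10 SE) and EGR1 (−0.16 ± 0.13) did not pass.

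Keratin and junction lists held falls in a few members. Without the block these were 28.6% of the measured keratins and 11.1% of the junction genes, against 0.641% of all genes. KRT80 and KRT7 (−0.32 ± 0.07 SE) fell among 7 keratins, while KRT8 (0.05 ± 0.05) and KRT18 (−0.04 ± 0.05), the keratins of simple epithelia, did not pass. The call of KRT7 was lost in 7 of 12 leave-one-out fits (highest limma adjusted p = 0.0648). Among 18 junction genes CLDN1 and plakoglobin, encoded by JUP, fell, the second from a median of 7.19 (6.97 to 7.35) to 6.81 (6.72 to 6.85) without overlap (limma adjusted p = 0.00507). E-cadherin, CDH1, lay at −0.01 ± 0.04 and did not pass. Of 14 collagens limma called 0 without the block (6 at an unadjusted p under 0.05, against 1149 of all 11075 genes). With it COL1A2 (0.39) and COL6A1 (0.18) rose and COL26A1 (−0.46), COL4A1, COL12A1 and COL1A1 fell, against 4.1% of all genes higher and 4.15% lower.

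Proliferation lists held 0 or 1 call each without the block. Over all genes 1.11% were then called higher and 0.641% lower, so such counts do not set these lists apart. With the block the shares over all genes were 4.1% and 4.15%. Of 21 measured mitosis genes limma called 0 (4 at an unadjusted p under 0.05, against 1149 of all 11075 genes). With the block CDC20, CENPF and TPX2 fell, by 0.10 to 0.15 (log2). MKI67, the proliferation marker, was at 0.00 ± 0.07 SE. Of 22 DNA replication genes the clamp loader subunit RFC3 rose (0.17 ± 0.04), a call lost in 8 of 12 leave-one-out fits (highest limma adjusted p = 0.0766), and with the block TK1 and MCM7 fell. Of 16 G1 genes the kinase CDK6 fell from a median of 8.17 (8.01 to 8.24) to 7.87 (7.66 to 7.93) without overlap (limma adjusted p = 0.00465), and with the block the cyclins CCND2 (0.29) and CCNE2 (0.12) and the inhibitor CDKN1C (0.22) rose. PLK2 was the 1 of 15 p53 targets called without the block, and the target CDKN1A, listed with the G1 genes, lay at 0.15 ± 0.07.

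Stress and metabolic lists gave single calls or 0 without the block. Over all genes 1.11% were then called higher and 0.641% lower, so such counts do not set these lists apart. An unadjusted p under 0.05 was found in 1149 of all 11075 genes. With the block 4.1% of all genes were called higher and 4.15% lower. BAG3, a cochaperone, rose among 12 heat shock genes (0.34 ± 0.05 SE, limma adjusted p = 0.000308), and the mitophagy receptor BNIP3 among 17 hypoxia and glycolysis genes (0.19 ± 0.04). Of 16 genes of the unfolded protein response limma called 0 without and 0 with the block, and 0 had an unadjusted p under 0.05. Without the block 0 were called of 17 lipid synthesis genes (1 at an unadjusted p under 0.05), 15 MYC and ribosome genes (1), 15 steroid-converting enzymes (2), 13 mTOR genes (4), 9 interferon genes (1), 8 prostaglandin genes (3), 8 NRF2 targets (1) and 11 reference genes (1). With the block AKR1C1 and AKR1C2, steroid reductases of nearly the same sequence, fell (−0.18 and −0.20), as did CYP1A1 (−0.37) and CYP1B1 (−0.15). The prostaglandin carrier SLCO2A1 (0.41) and the cyclooxygenase PTGS2 (0.35) rose with the block (limma adjusted p = 0.0007 and 0.019). Of the lipid synthesis genes HMGCS1, of the cholesterol path, rose (0.16) and the fatty acid genes FASN (−0.25) and FADS2 (−0.25) fell with the block. Of the mTOR genes SESN3 rose (0.14) and DDIT4 (−0.16) and AKT1S1 (−0.30) fell. The cystine transporter SLC7A11 rose among NRF2 targets (0.19), and the ribosome assembly factor BOP1 fell (−0.29), as did the glycolytic enzyme ALDOA (−0.08) and the interferon gene IFI6, which was under the floor on every 100 pM array (highest limma adjusted p of these 10 genes 0.0486).

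**Figure D4:**
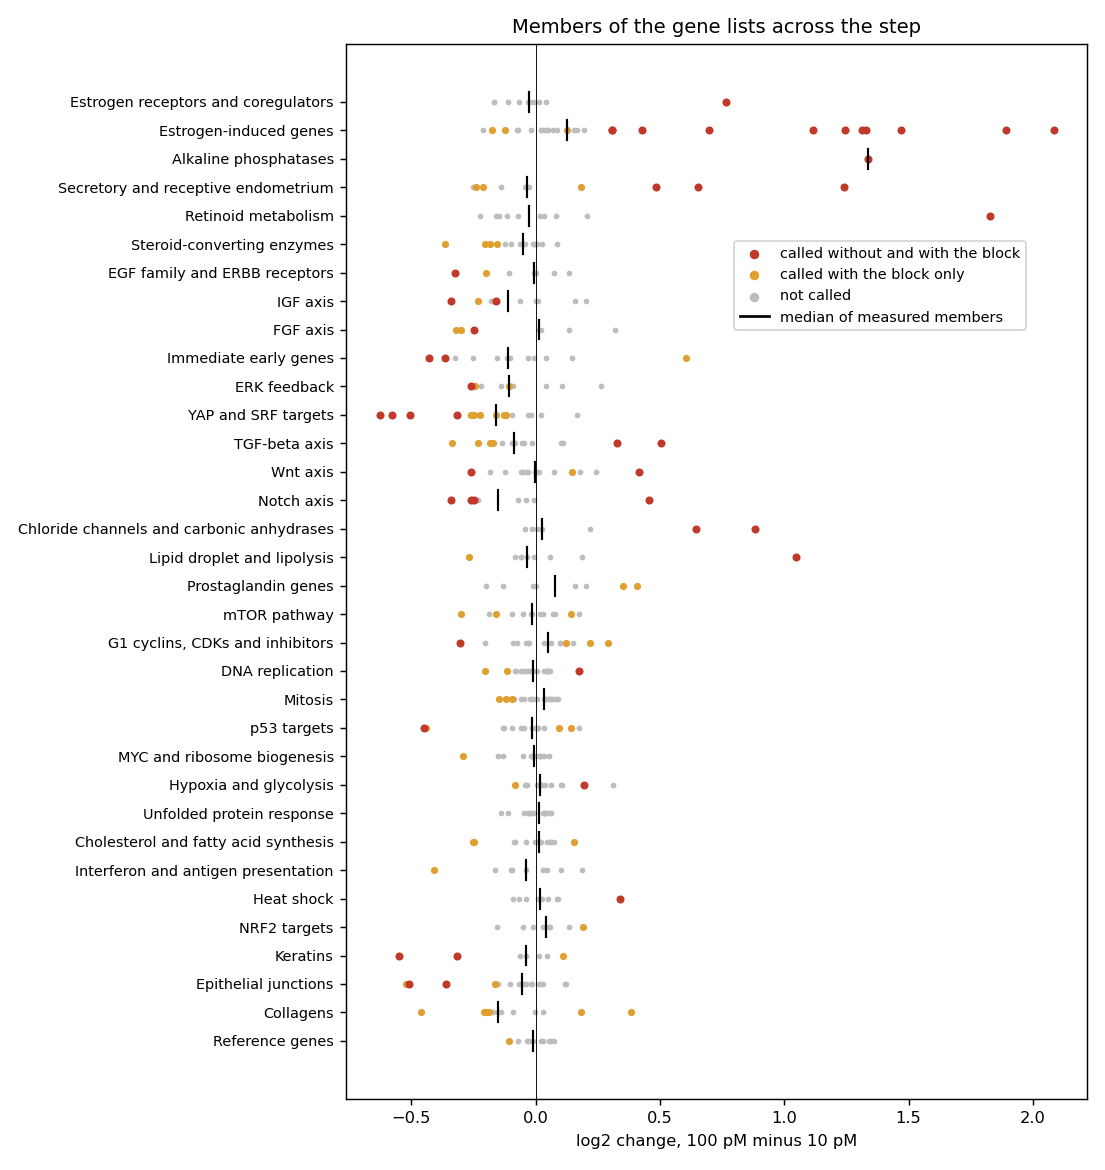
Log2 change from 10 to 100 pM (x axis) of every measured member of 34 gene lists (rows), coloured by call, with a black bar at each list's median. Members of the estrogen-induced list reach a fitted 2.08 (EGR3) and 11 of 29 are called higher, whereas the 17 YAP and SRF targets have a median of −0.16 and the 16 genes of the unfolded protein response stay near 0 with none called.

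The step was then set against the next step by a factor of 10, from 100 to 1000 pM, in 1 limma fit of the 1, 10, 100 and 1000 pM arrays. Both steps share the 100 pM arrays, so the contrast of the steps was tested and no overlap is given. It was called in 12 genes (0.108%), and in all 12 the change from 10 to 100 pM was the higher. PGR changed by 1.89 and then by 0.32, DHRS3 by 1.83 and 0.38 and GREB1 by 1.33 and 0.13. The difference for DHRS3 was 1.45 ± 0.19 SE (limma adjusted p = 0.000363) and for PGR 1.57 ± 0.27 (0.00422). NPPC and EGR3 were called too (limma adjusted p = 0.00122 and 0.00485), but their 10 pM medians were under the floor, so the size of the difference was not measured. The other 7 were ALPG, ANO1, MLPH, NRIP1, the taurine transporter SLC6A6, RHOBTB1 and EPB41L2. With the block 37 genes were called (0.334%), 27 of them higher and 10 lower. Deviations of same-number arrays at 100 and 1000 pM correlated at −0.031 to 0.503, above 0.1 in 4 of 6 pairs. The numbers thus paired these arrays only in part.

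Against the step before it, from 1 to 10 pM, limma called 0 genes without the block (319 at an unadjusted p under 0.05), so no gene was shown to change more, or less, from 10 to 100 pM than from 1 to 10 pM. With the block 2 were called (0.0181%). SMR3B fell more in the later step (difference −0.78 ± 0.10 SE, limma adjusted p = 0.000144), and SCGB2A1 rose more (0.81 ± 0.15, adjusted p = 0.0427).

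The same genes were read in arrays that the step did not use, vehicle against 1000 pM, a check added after the data were seen. That comparison called 153 genes higher (1.38%) and 155 lower (1.4%), and without vehicle replicate 5 and 1000 pM replicate 6, whose actin probe sets stood apart, 297 (2.68%) and 438 (3.95%). Of the 123 genes raised by the step, 122 were higher at 1000 pM than in vehicle and 97 were called so, or 117 without those 2 arrays. Of the 71 lowered, 71 were lower and 40 were called, or 64 without them. Over all genes 45.7% were higher, or 40.8% without them. Of the 331 genes called higher in the step with the block only, 309 were higher at 1000 pM and 33 called (292 and 96 without the 2 arrays). Of the 389 called lower with the block only, 368 were lower and 66 called (368 and 137).

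**Figure D5:**
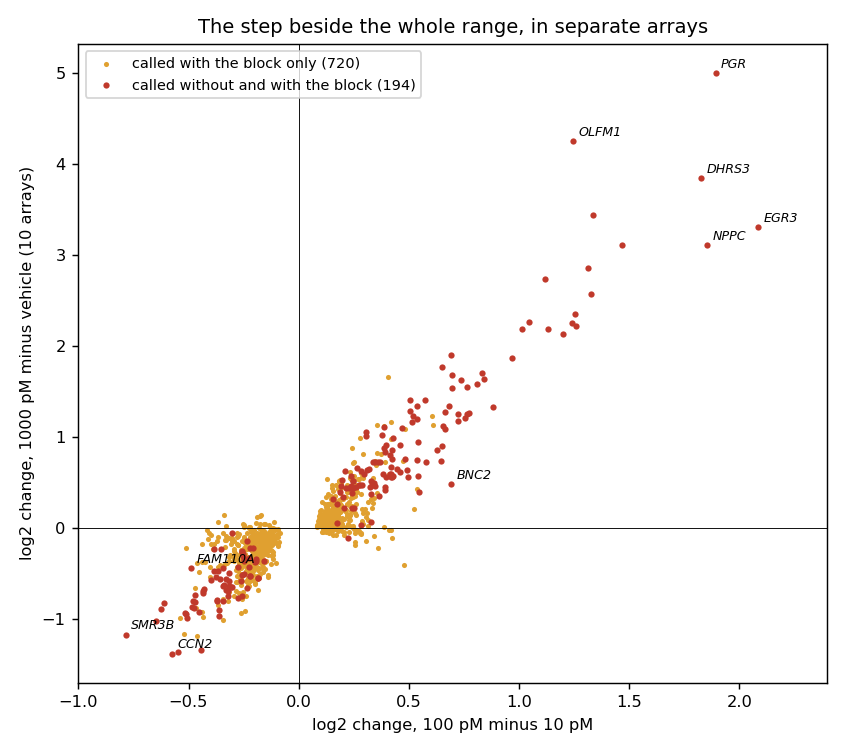
Log2 change from 10 to 100 pM (x axis) and from vehicle to 1000 pM in 10 arrays that the step did not use (y axis) for the 194 genes called without the block (red) and the 720 called with it only (orange). All 71 genes lowered by the step lie below 0 on the y axis and 122 of the 123 raised lie above it, with PGR at 1.89 and 5.00.

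Exceptions were few. GEN1, a resolvase of DNA junctions, was raised by the step (0.22 ± 0.06 SE) but lay at −0.11 ± 0.07 from vehicle to 1000 pM without the 2 arrays. C9orf72, ETS1 and FUNDC1 were raised by the step yet changed by 0.03, 0.07 and 0.06 there, and TOMM40, an outer membrane import channel of mitochondria, was lowered by 0.30 and changed by −0.05. The calls of these 5 genes in the step were kept in 1 to 4 of 12 leave-one-out fits. They were named after their values were seen. Among genes called with the block only, 39 of 331 raised and 21 of 389 lowered went the other way without the 2 arrays. Some lay near the vehicle level again at 1000 pM. FADS2 had medians of 6.48 in vehicle, 6.47 at 10 pM, 6.04 at 100 pM and 6.52 at 1000 pM. Those of AKT1S1 were 5.00, 4.97, 4.61 and 4.96. Both were also picked after their values were seen.

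The 12 arrays were alike in technical measures. The share of probe sets above the floor was 38.2% to 39.2%, and the 3′ minus 5′ difference of actin RNA, which grows with RNA degradation, was 0.81 to 1.55 at 10 pM and 1.13 to 1.62 at 100 pM (log2). In 4 arrays outside the step, 1 each of the vehicle, 0.3, 3 and 1000 pM groups, it was 2.67 to 4.62.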

How the data were processed

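RNA of 49 samples was measured on HT HG-U133 Plus PM arrays, which hold 54715 probe sets. The log2 values were used as the authors deposited them in the series' value table, whose normalization was kept; the submitters' processing notes name GCRMA and Partek without a version or order. All columns of the table were used or mapped, and 0 were left unmapped. Platform annotation gave 1 symbol to 40920 probe sets, several to 864 and none to 12931, and 40864 matched RefSeq. Probe sets above log2 4 on at least 6 of 49 arrays entered, and the probe set with the highest mean stood for each gene, leaving 11075 genes.

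The 12 arrays of the step were fitted in R 4.3.3 by limma 3.58.1, with package statmod 1.5.0 (intensity trend, Benjamini-Hochberg adjustment over all genes, threshold 0.05), without the replicate number and with it as a block. The numbers were taken to pair the arrays because same-number deviations correlated at 0.271 to 0.505 in 6 pairs, against −0.324 to 0.13 in 30 unlike pairs. That pairing comes from the values, as the labels name no batch. Steps were compared in a fit of 4 groups. Code was tested on simulated data; tables and plots used Python 3.11.15, pandas 2.3.3, numpy 2.4.6 and matplotlib 3.10.9.

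Named genes were the 12 largest rises and 12 largest falls called without the block whose 100 pM arrays all lay on one side of the 10 pM mean, the 8 further of each called with the block, the 4 largest of each contrast of steps, PGR, GREB1, OLFM1, ESR1, ESR2, ALPG and ALPP, and up to 6 called and 3 uncalled members of each of 34 lists, or all where 5 or fewer were called. A gene under the floor on all arrays of a group got only a bound. The members and lists were chosen with earlier results of these data known. Alternatives were other sets of arrays, normalizations, filters, variance priors, weights, summaries of probe sets and thresholds, an actin covariate and leaving out each array. The number of arrays limits the precision.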

Additional observations from a re-analysis of the deposited data

Results flagged for a closer look

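In 268 groups of 6 values, 19 held a sample whose gap to the nearest other sample was large for the range of its group; chance does this in about 5% of groups. At 10 pM, replicate 5 was low in FAM110A (4.61, others 4.81 to 4.89), and replicate 4 was low in SIGLEC15 (5.38, others 6.10 to 6.44) and high in SPP1 (7.65, others 6.83 to 7.06). Replicate 2 at 10 pM was low in JUN (6.36, others 6.68 to 6.86), AJUBA (9.06, others 9.23 to 9.31), LEF1 (4.40, others 4.76 to 4.94) and ACTB (12.34, others 12.43 to 12.47). Replicate 1 was high in LTBP3 (7.80, others 7.16 to 7.39), and replicate 3 was high in TK1 (9.11, others 8.61 to 8.71) and low in COL26A1 (5.26, others 5.77 to 6.07).

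At 100 pM, replicate 2 was low in CCND1 (9.14, others 9.54 to 9.71) and SLC7A11 (10.40, others 10.64 to 10.70), and high in LTBP2 (5.23, others 4.10 to 4.51), PTGS2 (4.77, others 4.46 to 4.56) and COL6A1 (9.03, others 8.72 to 8.84). Replicate 4 was high in AKR1C2 (10.53, others 10.12 to 10.26), and replicate 6 in AKT1S1, a subunit of mTOR complex 1 (5.16, others 4.44 to 4.67). Over all probe sets, 10 pM replicate 4 had the lowest median (2.95, others 2.994 to 3.016), and 100 pM replicate 5 the widest deviations from its group (SD 0.166, others 0.12 to 0.136); without the latter 123 rises and 71 falls were called.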

How the results depend on the processing

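The rises numbered 123 and the falls 71. The replicate block gave 454 and 460, and the block with the actin difference as a covariate 490 and 495. Leaving out each number under the block gave 280 to 496 rises and 283 to 514 falls, at 287 and 288 without number 1, 404 and 436 without 2, 416 and 385 without 3, 280 and 305 without 4, 496 and 514 without 5 and 287 and 283 without 6. Without the block, leaving out each array gave 95 to 123 rises and 44 to 73 falls. The falls were 26 with all 49 arrays, 39 with all groups and the block, 36 without an intensity trend and 108 at a threshold of 0.1. The contrast with the next step called 12 genes, and 37 with the block; that with the previous step called 0, and 2 with the block. Of the genes lowered by the step, 40 were called from vehicle to 1000 pM, and 64 without the 2 arrays of high actin difference. The cause of these moves was not tested. All other settings kept both counts of the step within 1.5 times, and no named gene's called change turned its sign in any setting run. Among 129 named genes, all 49 arrays ended 19 calls, and the block ended 0 and added 67. Values near the floor of log2 4 limit what can be said of EGR3, NPPC, MSMB, RBM24 and CNN1.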

Other observations

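GALNT6, which starts O-linked glycans, was lowered by the step in all 12 leave-one-out fits but was not called from vehicle to 1000 pM in the arrays that the step did not use. Its medians were 6.65 in vehicle, 6.61 at 10 pM, 6.26 at 100 pM and 6.39 at 1000 pM, and the change from vehicle to 1000 pM was −0.23 ± 0.12 SE without the 2 arrays of high actin difference (limma adjusted p = 0.33). RGS10, a regulator of G protein signalling, had medians of 6.21 in vehicle, 6.13 at 10 pM, 6.53 at 100 pM and 6.71 at 1000 pM, and the small GTPase DIRAS3 had 4.08, 4.28, 5.08 and 5.45. These genes were chosen after their values were seen.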
